A study of Homo sapiens with 6 samples.

Results

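Accessible chromatin was mapped by ATAC-seq, in which a transposase inserts sequencing adapters into open DNA, in U2OS, an established human osteosarcoma line. The regions described here were called as a single peak in CRAMP1-KO cells, which carry a knockout of CRAMP1, and as separate peaks in wild-type (WT) cells. Peaks of the 6 libraries on chromosomes 1 to 22 that overlapped by at least 1 bp were merged into 243541 regions (build hg19). Of these, 1320 regions held exactly 1 peak in each of the 3 CRAMP1-KO libraries and 2 or more peaks in at least 2 of the 3 WT libraries, and they are called joined regions below. They were 0.542% of all merged regions. The mirrored rule, split in at least 2 CRAMP1-KO libraries and exactly 1 peak in each WT library, gave 179 regions, or 0.0735%, called reverse regions. Peak numbers per library chose both sets, so the contrast between genotypes within them is given as a description. The labels name the cell line and genotype only, not whether replicates were separate cultures or whether the knockout was 1 clone.

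An ATAC-seq peak is a stretch where the density of inserted fragments passes a threshold over the local background, and a gap between neighbouring peaks is a stretch where it drops back below it. Nucleosomes block the transposase, so a gap inside an otherwise open promoter or enhancer often holds a nucleosome or a run of them. Linker histone H1 binds DNA where it enters and leaves the nucleosome and favours compact chromatin, and CRAMP1 is known as a regulator of H1 genes. Replication-dependent histone genes are short, lack introns and lie in clusters, the largest at 6p22.

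One joined region lay at H1-4, an H1 gene of the 6p22 cluster. The 250 bases before its start are shown because the CRAMP1-KO peak and the first WT peak both begin shortly before the gene's start. They are RefSeq sequence of build GRCh38.p14, chr6:26156079-26156328, plus strand, 5′ to 3′, with motif matches in capitals. These positions are not on the same scale as the hg19 positions of the peaks.
H1-4: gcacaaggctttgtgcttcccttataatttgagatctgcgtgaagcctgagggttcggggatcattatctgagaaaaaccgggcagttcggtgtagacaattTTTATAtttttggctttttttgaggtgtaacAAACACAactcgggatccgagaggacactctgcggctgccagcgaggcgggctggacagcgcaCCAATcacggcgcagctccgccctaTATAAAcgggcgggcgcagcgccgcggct
The capitals mark, in order, TATAAA on the minus strand, AAACACA (the H1 box, an element known from H1 promoters), CCAAT and TATAAA on the plus strand. No 2 matches overlap, and both strands were searched. AAACACA lay 117 to 111 bases before the start and occurs in 4.82% of 35116 RefSeq promoter windows of this length. CCAAT occurs in 32.0% and TATAAA in 10.7% of those windows. AAACACA was also found before H1-1, H1-2, H1-3, H1-5 and H1-6, none of which had a joined region. By distance from the gene start, the earliest peak at H1-4 began at position -92, so AAACACA lay outside every peak.

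At H1-4 every CRAMP1-KO library had 1 peak and every WT library had 2, with no overlap in that count. The CRAMP1-KO peak was 2517, 2563 and 2517 bp wide in replicates 1, 2 and 3. The first WT peak was 554, 584 and 553 bp wide and the second 1452, 1488 and 1463 bp. The gap between them was 332, 252 and 300 bp. Set against hand-written hg19 limits of the gene, which is 785 bp long, the CRAMP1-KO peak began at position -71 from the gene start in all 3 libraries. In WT replicate 1 the first peak ran over positions -92 to 461, and the second began at position 794. The gap therefore covered the last part of the gene in WT replicate 1, with a similar place in replicate 2 (from 504 to 757 bp) and replicate 3 (from 481 to 782 bp). The second WT peak reached the start of the next gene, H2BC5, which encodes a histone H2B and begins 1790 bp after the start of H1-4.

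The highest summit of the region at H1-4 was similar in height in both genotypes once scaled. Summit pileup, the number of fragments stacked at the highest point, was 163, 162 and 224 in CRAMP1-KO. In WT it was 190, 131 and 80 at the first peak and 217, 263 and 129 at the second. These pileups are not adjusted for depth. Scaled to the median of all regions with a peak in all 6 libraries, the highest pileup had a mean log2 value of 1.32 in CRAMP1-KO and 1.33 in WT, a difference of -0.01. The CRAMP1-KO summit lay 1608, 1848 and 1634 bp after the gene start, inside the span of the second WT peak. From the start of H2BC5 these summits were at positions -182, 58 and -156, and those of the second WT peak at 66, -181 and 66. The scaled values thus compare height near the start of H2BC5. Height at the first WT peak has no separate CRAMP1-KO value and was not compared. Among the 247 regions split in all 3 WT libraries and spanned in all 3 CRAMP1-KO libraries, 27.1% had a longer median gap than the 300 bp of H1-4 and 47.0% had a stronger joined peak.

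**Figure D1:**
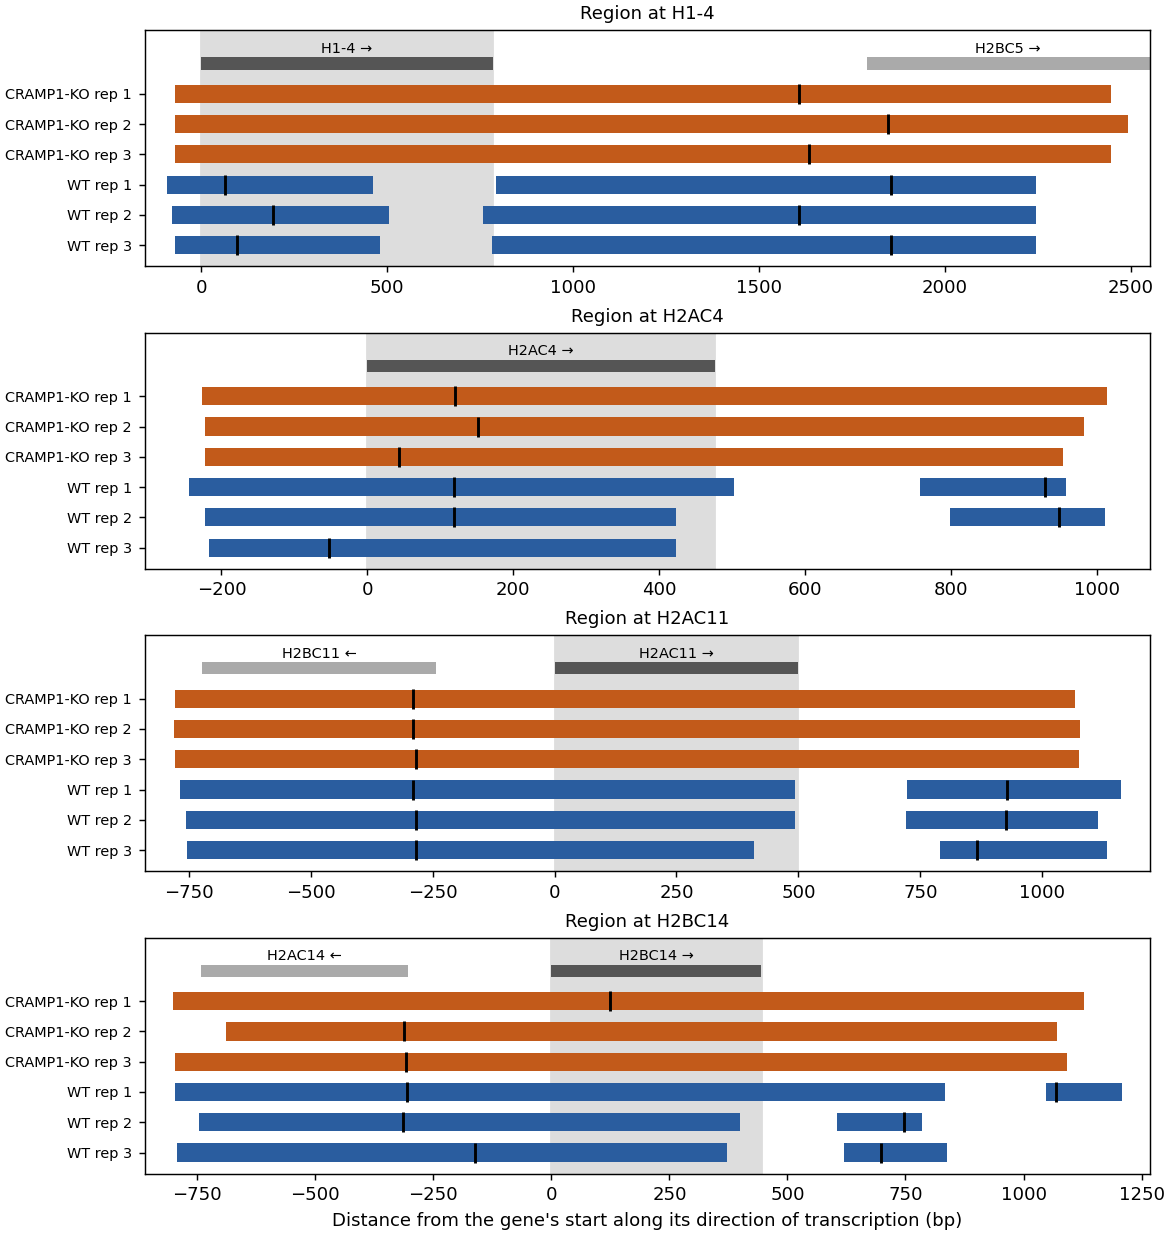
Peaks at 4 joined regions of the 6p22 histone gene cluster, by library, as distance in bp from the gene's start along its transcription. Orange bars are CRAMP1-KO peaks, blue bars WT peaks, black ticks summits, dark grey the gene and light grey a neighbouring gene. The CRAMP1-KO bars run unbroken where at least 2 WT libraries have a gap near the gene's end.

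Further joined regions lay at core histone genes, which encode the proteins of the nucleosome core. Of 161 regions of the 6p22 window (26.0 to 27.9 Mb of chromosome 6) with a peak in all 6 libraries, 6 were joined regions and 0 were reverse regions. Joined regions thus numbered 37.3 per 1000 there, against 14.3 per 1000 over chromosomes 1 to 22. The first rate rests on 6 regions, and the rates were not matched for region width, with which the joined share rose. Of these 6, 4 overlapped a histone gene window, and the windows of core histone genes were written after the regions were seen. The region from 27100037 to 27101977 holds the divergent genes H2BC11 and H2AC11, of histones H2B and H2A. It had 1 peak of 1846, 1857 and 1854 bp in CRAMP1-KO and 2 peaks in every WT library, with gaps of 231, 228 and 382 bp. The first WT peak ended 491, 491 and 408 bp after the start of H2AC11, whose window is 500 bp long, and the second began 723, 720 and 791 bp after it. The CRAMP1-KO peak ended 1066, 1076 and 1074 bp after that start. Its summit pileup was 292, 285 and 365 in CRAMP1-KO. In WT it was 461, 476 and 251 at the first peak and 184, 180 and 90 at the second. Like those at H1-4, these pileups are not adjusted for depth, and genotypes are not compared by them.

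The region from 27782021 to 27784029, with the divergent genes H2AC14 and H2BC14, had 1 peak in each CRAMP1-KO library and WT gaps of 215, 205 and 248 bp. In WT replicates 2 and 3 its gap began 398 and 370 bp after the start of H2BC14, whose window is 446 bp long. In WT replicate 1 it began farther out, at 832 bp. The region from 26032784 to 26034041 at H2AC4, a histone H2A gene, was split in WT replicates 1 and 2 with gaps of 255 and 376 bp. WT replicate 3 had only the peak over the gene. The WT peak past the gap at H2BC14 was weak, with −log10 q of 4.59, 1.65 and 5.76 in replicates 1, 2 and 3. At H2AC4 it had 3.69 and 5.61 in replicates 1 and 2, so both splits rest on weak peaks. In these 4 regions the gap of most WT libraries lay over the last part of a histone gene or just past its end. The CRAMP1-KO peak of every library covered it. Core histone genes without a joined region had no window, so whether this place is usual for histone genes was not tested. The other joined regions of the window, at 26474059 to 26475214 and 27486113 to 27487535, overlapped none of the gene windows.

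Of 8 H1 genes with a window, H1-4 was the 1 with a joined region, and 0 had a reverse region. No merged region overlapped the windows of H1-3, H1-5 and H1-6. The windows of CRAMP1, of the topoisomerase genes TOP2A and TOP2B, of SLBP, which binds histone mRNA, and of NPAT, a coactivator of histone genes, held neither. The 1q21 histone window held 1 joined region, at 149899055 to 149900415, with gaps of 214, 218 and 223 bp in WT, and the 1q42 window held 0. Peak lists do not show the CRAMP1 edit itself, and the genotype labels were not checked.

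The label of a joined peak was checked base by base, because 1 peak per CRAMP1-KO library may span the WT gap or cover 1 side of it only. In 756 of the 1320 regions (57.3%) the peak of all 3 CRAMP1-KO libraries covered every base of every WT gap. The gaps were spanned in 2 CRAMP1-KO libraries in 199 regions, in 1 library in 228 and in 0 libraries in 137. By library, the share spanned was 70.5%, 67.4% and 81.3% in CRAMP1-KO replicates 1, 2 and 3, the highest being the library with the longest list of the genotype. Of the reverse regions, 53 of 179 (29.6%) were spanned in all 3 WT libraries and 54 in 0. The word joined therefore holds in full for 756 regions, and in part for the 199 and 228 spanned in 2 or 1 libraries. In the other 137 no CRAMP1-KO peak spanned every WT gap, and the name there follows from peak numbers only.

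Where a CRAMP1-KO peak did not span the gap, it most often lay over the stronger WT peak alone. This was so in 200 of 389 such regions in CRAMP1-KO replicate 1, 254 of 430 in replicate 2 and 125 of 247 in replicate 3. The peak lay over a weaker WT peak alone in 31, 23 and 10 of them. Where it lay over 1 WT peak alone, the other WT peak was missing from the CRAMP1-KO list, not merged into its neighbour. In a further 103, 82 and 78 of the regions not spanned, the CRAMP1-KO peak touched both a stronger and a weaker WT peak. It did so without covering every base of every WT gap.

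Gaps of different WT libraries mostly overlapped. The longest gaps of the split WT libraries shared at least 1 base in 1193 of 1320 joined regions (90.4%), and the longest gaps of the split CRAMP1-KO libraries did so in 140 of 179 reverse regions (78.2%). The position of a gap was not part of the rule, but the share that gaps placed at random would reach was not computed. The joined summit seldom moved into the gap. It lay inside the strongest WT peak of every split WT library in 81.0%, 81.4% and 82.9% of the joined regions in CRAMP1-KO replicates 1, 2 and 3. It lay in a gap, outside those peaks, in 4.32%, 4.55% and 3.86%. Of the 756 regions spanned in all 3 libraries, 745 had the CRAMP1-KO summit outside every WT gap in all 3 libraries and 0 had it inside a gap in all 3.

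Gaps were short. At joined regions the median gap was 209, 235.5 and 256 bp in WT replicates 1, 2 and 3, a mean of 233.5 ± 23.6 bp (SD, n = 3). At reverse regions it was 271, 258.5 and 259 bp in the CRAMP1-KO libraries, a mean of 262.8 ± 7.08 bp (SD, n = 3). The interquartile ranges at joined regions were 167 to 290, 189 to 309 and 193 to 355 bp. Gaps over 500 bp made up 4.09%, 4.38% and 7.94% of the WT gaps, and the longest was 1609 bp. Summits on either side of the longest gap of a region were a median of 714, 766.5 and 724 bp apart in WT. The stronger of those peaks had a median pileup 1.95, 2.09 and 1.92 times that of the weaker.

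The shortest gaps were set by the peak caller, and differently in each list. Peaks closer than a fixed distance are written as 1 peak, and the lowest gap of a list gives that joining distance. It was 163, 158 and 168 bp in CRAMP1-KO and 135, 163 and 147 bp in WT, and it equalled the lowest peak width of each list. WT replicates 1 and 3 could therefore hold gaps too short for any CRAMP1-KO list. Of the WT gaps at joined regions, 26.4%, 5.93% and 11.7% were at most 168 bp. After peaks up to 168 bp apart were joined in every library, 1044 joined and 200 reverse regions were left. With this common distance the share of regions with 2 or more peaks, among those with a peak in all 6 libraries, was 2.14%, 2.83% and 2.24% in CRAMP1-KO. It was 4.43%, 3.35% and 4.57% in WT, and in the lists as deposited 2.16%, 2.98% and 2.12% in CRAMP1-KO and 5.55%, 3.37% and 5.05% in WT. The lists of CRAMP1-KO replicate 1 and WT replicate 2 shared a joining distance of 163 bp, and WT replicate 2 was the WT library closest to the CRAMP1-KO range. At a distance of 500 bp, 457 joined and 153 reverse regions were left. Whether fragment length acts on gaps in further ways was not tested.

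**Figure D2:**
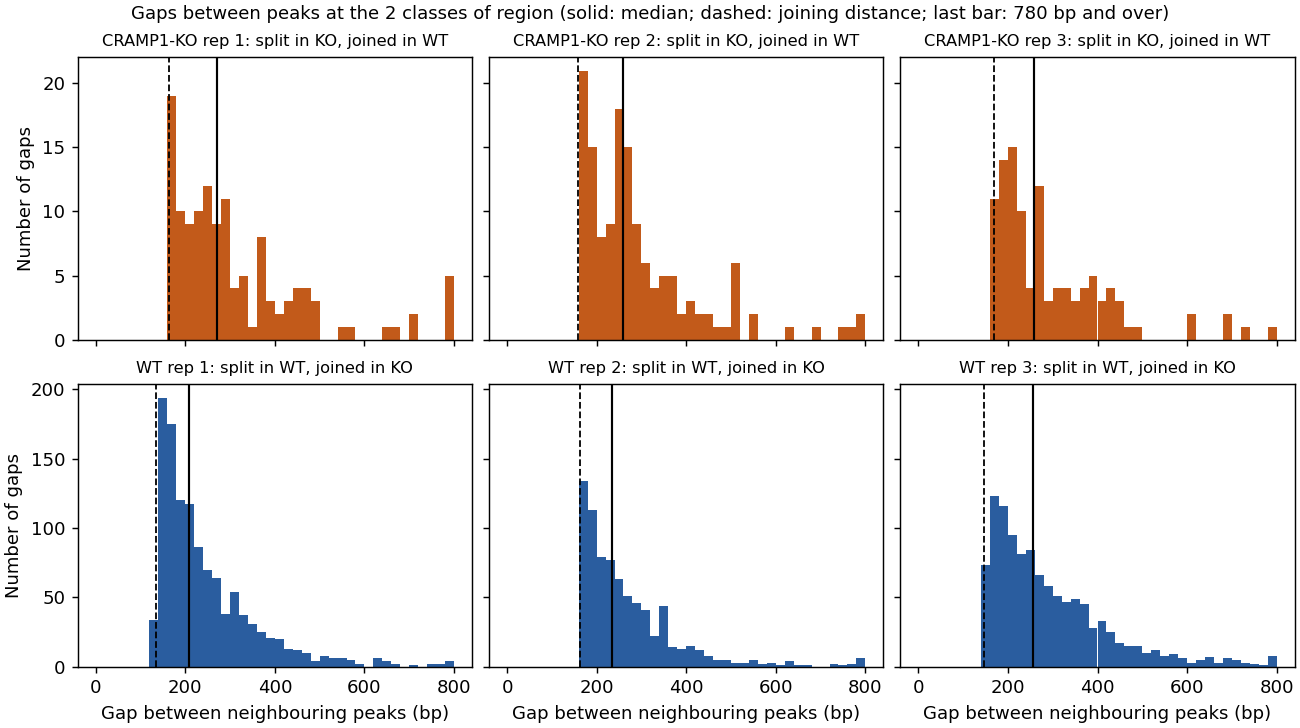
Number of gaps by gap length in bp, for reverse regions in the CRAMP1-KO libraries (top) and joined regions in the WT libraries (bottom). Dashed lines mark the joining distance of each list and solid lines the median gap, which was 209, 235.5 and 256 bp in WT. Most WT gaps are at most 300 bp long.

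**Figure D3:**
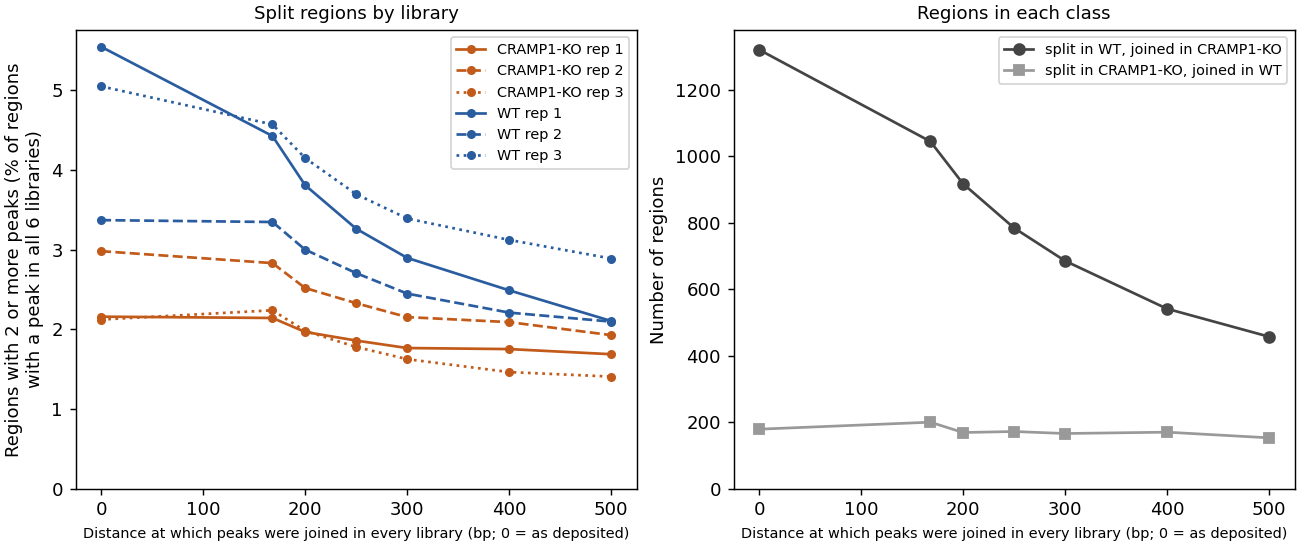
Left, share of regions with 2 or more peaks per library against the distance in bp at which peaks were joined in all libraries. Right, numbers of joined and reverse regions at each distance, from 1320 and 179 as deposited to 457 and 153 at 500 bp. The WT lines lie above the CRAMP1-KO lines at every distance drawn.

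How many libraries showed a split varied. Of the 1320 joined regions, 342 were split in all 3 WT libraries and 978 in 2. WT replicates 1, 2 and 3 were split at 1142, 766 and 1074 of them. Most had 2 peaks at most in a WT library, with 61 regions reaching 3 and 1 reaching 4. Where the remaining WT library had 1 peak, that peak spanned the gap in 134 of 177 regions for replicate 1, 423 of 550 for replicate 2 and 36 of 226 for replicate 3. A relative depth index was 19.6, 19.1 and 24.3 in CRAMP1-KO and 37.96, 23.7 and 17.4 in WT, lowest in WT replicate 3. The index is the lowest background of a list per 1000 bp of its lowest peak width. Read totals are unknown. Without WT replicate 1, 2 or 3 the rule, which then needs both remaining WT libraries split, gave 506, 876 and 584 joined regions.

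Just outside the rule, 3303 regions were split in 1 WT library with 1 peak in each CRAMP1-KO library. Their median gap was 204 bp, against 224 bp for regions split in 2 WT libraries and 243 bp for those split in 3. Another 1032 regions were split in at least 2 WT libraries and also in 1 CRAMP1-KO library, with a median gap of 276 bp. The full span in all 3 CRAMP1-KO libraries was found in 72.2% of regions split in 3 WT libraries, 52.0% of those split in 2 and 46.6% of those split in 1. Over all regions, 1217 were split in at least 2 libraries of both genotypes.

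The same measure was read in libraries that the choice of regions did not use. Regions were chosen from 2 WT and 2 CRAMP1-KO libraries, as split in both of one genotype and holding 1 peak in both of the other, and read in the remaining library of each genotype. This was done in all 9 ways, which share libraries. For regions chosen as split in WT (608 to 1196 regions), 15.9% to 32.5% were split in the held-out CRAMP1-KO library and 42.1% to 72.7% in the held-out WT library. The CRAMP1-KO share was lower in 9 of 9 ways. For regions chosen as split in CRAMP1-KO (53 to 133 regions), 21.8% to 32.1% were split in the held-out CRAMP1-KO library and 30.4% to 55.3% in the held-out WT library. The CRAMP1-KO share was again lower in 9 of 9 ways, but the ranges overlapped and the difference ran from -27.1 to -1.89 percentage points. The smallest was 17 of 53 regions in CRAMP1-KO replicate 1 against 18 of 53 in WT replicate 2. With the common joining distance the CRAMP1-KO share was also lower in 9 of 9 ways for both choices. The difference then ran from -41.1 to -23.6 points for regions chosen as split in WT and from -22.1 to -1.43 points for those chosen as split in CRAMP1-KO.

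**Figure D4:**
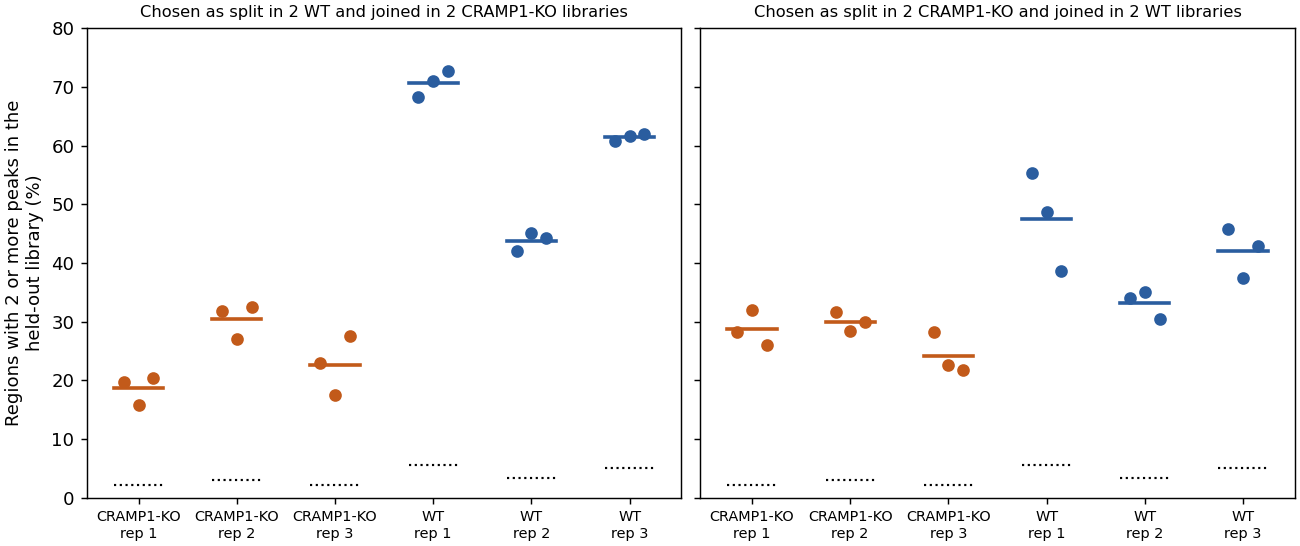
Share of regions with 2 or more peaks in the held-out library, for regions chosen as split in WT (left) and as split in CRAMP1-KO (right). Each point is 1 of the ways to hold out the library, bars are means and dotted lines the share over all regions with a peak in all 6 libraries. Held-out CRAMP1-KO libraries lie below held-out WT libraries on the left, at 15.9% to 32.5% against 42.1% to 72.7%.

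Joined regions were wide. The merged region had a median width of 1373.5 bp, with an interquartile range of 1092 to 1729 bp, against 760 bp for all 90373 regions with a peak in all 6 libraries. Reverse regions had a median width of 1457 bp. Joined regions made up 0.473% of shared regions of 500 to 1000 bp, 3.06% of those of 1000 to 1500 bp and 7.95% of those of 3000 bp or more. Reverse regions made up 0.0426%, 0.387% and 1.99% of the same widths. Joined regions outnumbered reverse regions in every width class from 500 bp on, by 4.0 to 11.1 times.

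Bases under peaks and the outer span are given side by side as descriptions. A WT gap lies in the span but not in the covered bases, so a difference between them follows from the rule. The single CRAMP1-KO peak covered a median of 1062, 1035.5 and 1155 bp, and the WT peaks together 978, 1017 and 806 bp. From the first WT start to the last WT end the median was 1211, 1180.5 and 1084 bp, so the WT peaks reached across about the same stretch or more. Of 1295 joined regions with a peak in all 6 libraries, 475 had more covered bases in all CRAMP1-KO libraries than in any of WT, and 34 had fewer. Over all shared regions these shares were 19.2% and 3.05%, against 36.7% and 2.63% of the joined regions. The rule counts peaks from the same lists, so nothing is read from that contrast. Where all 3 CRAMP1-KO peaks spanned the gaps, the median covered length was 1310, 1311 and 1336.5 bp in CRAMP1-KO. It was 1120.5, 1160.5 and 966 bp in WT. The median outer span of these regions was 1310, 1311 and 1336.5 bp in CRAMP1-KO and 1310, 1285 and 1211 bp in WT. This choice of regions favours wide CRAMP1-KO peaks, so nothing is read from either contrast.

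Joined regions were found at every strength, making up 1.17% to 1.91% of shared regions in each strength class. Their share was highest in the weakest class, as was that of reverse regions. At the median, joined regions were stronger than reverse regions. The median −log10 q of the strongest peak was 39.0, 41.1 and 64.2 in CRAMP1-KO and 65.0, 61.0 and 36.9 in WT. Over all shared regions it was 36.0, 38.4 and 62.0 in CRAMP1-KO and 57.5, 55.0 and 32.9 in WT, in the same order of libraries within each genotype. At reverse regions it was 14.8, 19.1 and 27.3 in CRAMP1-KO and 28.6, 26.3 and 17.6 in WT. The weakest WT peak of a joined region had a median −log10 q of 11.3, 18.7 and 7.81, and the weakest CRAMP1-KO peak of a reverse region 4.42, 4.01 and 6.78. The number of joined per reverse region was 3.5 where the median −log10 q over libraries was under 10. It was 11.4 from 50 to 100 and 25.3 at 200 or more, where 101 joined and 4 reverse regions were found.

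**Figure D5:**
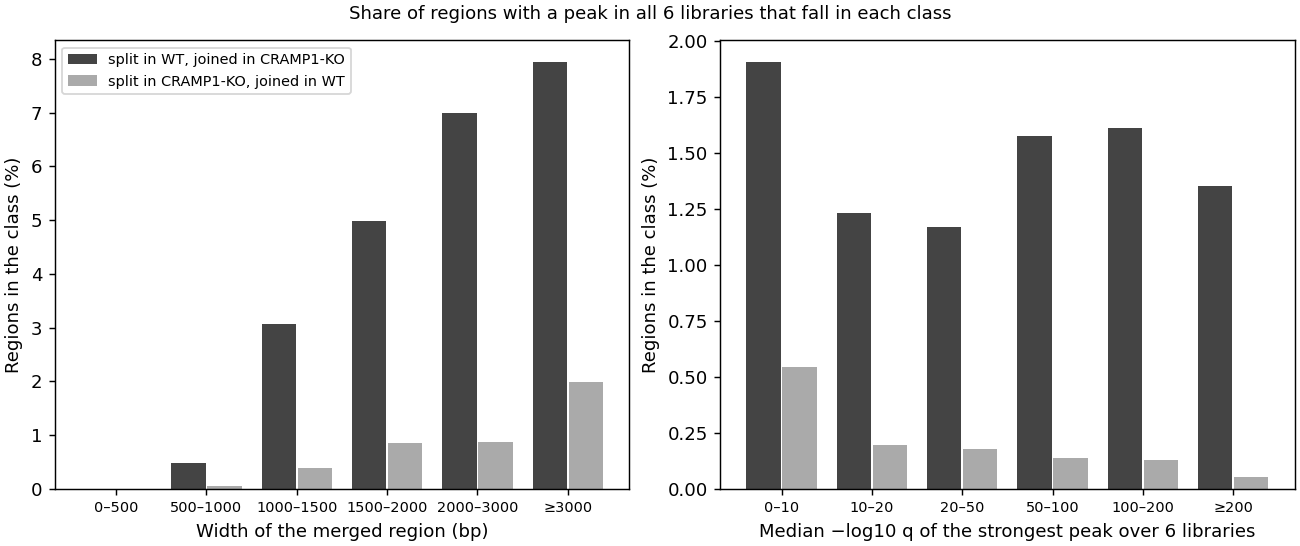
Share of regions with a peak in all 6 libraries that were joined (dark) or reverse (light) regions, by width of the merged region in bp (left) and by median −log10 q (right). Joined regions make up 7.95% of regions of 3000 bp or more. Both joined and reverse regions are most frequent among the weakest regions, at 1.91% and 0.545%.

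Over all joined regions, genotypes differed in summit height about as often as over all shared regions. The highest pileup, scaled to the shared regions' median, had a median log2 value of 0.19 ± 0.04 in CRAMP1-KO and 0.23 ± 0.03 in WT over the joined regions (SD, n = 3), a difference of -0.04. Its groups did not overlap at 11.8% of them with CRAMP1-KO higher and at 26.9% with CRAMP1-KO lower, against 14.2% and 24.8% of all shared regions. Scaled to the depth index, the difference was 0.13, but that scaling moved the median of all shared regions by 0.17. With it, CRAMP1-KO was higher without overlap at 12.2% and lower at 2.47% of joined regions, against 14.3% and 3.08% of all shared regions. At regions spanned in all 3 CRAMP1-KO libraries, the value scaled to the shared median was 0.69, 0.70 and 0.66 in CRAMP1-KO. It was 0.77, 0.78 and 0.75 in WT, a difference of -0.08, with CRAMP1-KO higher without overlap at 12.3% and lower at 28.8%. Under the depth index that difference was 0.08. Local background, scaled in the same way, was 0.33 in CRAMP1-KO and 0.36 in WT, above the median of shared regions in both. At regions spanned in all 3 CRAMP1-KO libraries the background was higher without overlap in CRAMP1-KO at 151 of 754 and lower at 71 (9.42%). Over all joined regions the shares were 14.7% and 15.4%, against 14.6% and 12.9% of all shared regions.

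Joined regions were spread over the genome. They lay in 923 of the 2721 bins of 1 Mb that held a shared region, and 19 bins held 4 or more, the highest being 7 in the bin that starts at 27 Mb of chromosome 1. Counting those with a peak in all 6 libraries, they numbered from 5.06 per 1000 shared regions on chromosome 13 (8 of 1580) to 17.4 on chromosome 14 (55 of 3166). Broad blocks picked from earlier results of these data held, by the same count, 16 joined regions of 1250 shared ones (chromosome 18, 20 to 75 Mb), 14 of 636 (chromosome 11, 0 to 15 Mb) and 0 of 216 (chromosome 4, 60 to 75 Mb).

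Regions outside the rule gave a separate measure. On chromosome X, 2132 regions had a peak in all 6 libraries. Of these, 40, 46 and 35 held 2 or more peaks in CRAMP1-KO and 100, 52 and 86 in WT. The shares were 1.89% ± 0.258 in CRAMP1-KO and 3.72% ± 1.16 in WT (SD, n = 3), with no overlap between genotypes (two-sided exact permutation p = 0.1, the smallest that 3 against 3 allows; adjusted p = 0.2 over the 2 tests). The joining distances differ here too, and with the common distance the difference was -1.33 percentage points (exact permutation p = 0.1), against -1.83 as deposited. By the same rule, chromosome X held 21 joined and 2 reverse regions. At the 81434 regions with exactly 1 peak in each library, which cannot be joined or reverse, the median width was 580, 561 and 620 bp in CRAMP1-KO and 567, 561 and 487 bp in WT. The means of 587 ± 30.1 and 538 ± 44.6 bp (SD, n = 3) overlapped in their libraries (exact permutation p = 0.3, adjusted p = 0.3). Peaks of single-peak regions were thus not shown to differ in width beyond the spread of the libraries.

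The strongest region split in all 3 WT libraries and spanned in all 3 CRAMP1-KO libraries lay on chromosome 5 at 6765672 to 6767225. Its CRAMP1-KO peak was 1536, 1543 and 1547 bp wide with −log10 q of 335, 426 and 476. Its WT peaks, a weaker one of 412, 399 and 346 bp and a stronger one of 827, 829 and 844 bp, were 301, 293 and 279 bp apart. All 6 libraries had the highest summit within the stronger WT peak, from 6766832 to 6766911. The next one, chr3:48128824-48130929, had a median gap of 318 bp and a CRAMP1-KO pileup of 471, 529 and 677. It was followed by chr6:158447114-158449202 with a median gap of 303 bp and chr10:49196308-49198268 with 191 bp. Then came chr9:27193846-27195286 with 178 bp and chr3:33155145-33156994 with 308 bp. Scaled log2 pileup differed between genotypes by -0.27 to 0.05 over these 6 regions, CRAMP1-KO minus WT.

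The longest median gap among such regions was 545 bp, on chromosome 6 at 119468059 to 119469946. The CRAMP1-KO peak there was 1888, 1787 and 1787 bp wide. It covered a strong WT peak of 806, 814 and 811 bp and a weak one of 520, 422 and 370 bp, which were 429, 545 and 554 bp apart. Its pileup, not adjusted for depth, was 194, 248 and 312 in CRAMP1-KO, against 352, 369 and 221 at the strong WT peak. Scaled to the shared regions' median, the log2 difference was -0.22, CRAMP1-KO minus WT. Median gaps were 494 bp at chr15:70796523-70798575, 479 bp at chr20:48000850-48002468 and 466 bp at chr2:30329051-30330687.

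A few joined regions held 3 WT peaks in some libraries. On chromosome 5 at 167790904 to 167793521, CRAMP1-KO had 1 peak of 2556, 2571 and 2536 bp and WT had 3, 2 and 3 peaks. Its first WT peak had −log10 q of 181, 149 and 92.6, and the others 7.63 to 21.5. On chromosome 14 at 61644069 to 61646318, CRAMP1-KO had 1 peak of 2193, 2242 and 2243 bp and WT again had 3, 2 and 3, with the same central summit at 61645500 in 5 of the 6 libraries. On chromosome 5 at 171879962 to 171883153, CRAMP1-KO had 1 peak of 3050, 2807 and 3045 bp, and WT replicate 2 also had 1 peak, of 3128 bp. On chromosome 1 at 41290232 to 41291962, the CRAMP1-KO peaks were weak, with −log10 q of 5.49, 11.4 and 12.6, and only 1 of them spanned all WT gaps.

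Only 3 reverse regions were split in all 3 CRAMP1-KO libraries and spanned in all 3 WT libraries, against 247 joined regions. Median gaps were 326 bp at chr17:3460296-3462479, 290 bp at chr17:7405358-7406730 and 382 bp at chr11:1145166-1148393. The region at chr17:3460296-3462479, the strongest of them, had −log10 q of 19.3, 32.4 and 28.4 at its stronger peak in CRAMP1-KO and 30.5, 35.5 and 21.01 in WT. A gap that closes in some cells and one that partly closes in all cells give the same list in bulk libraries and cannot be told apart.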

How the data were processed

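ATAC-seq was run on 3 CRAMP1-KO and 3 WT libraries of 50000 cells, with 30 min of tagmentation and 7 PCR cycles, per the labels' protocols. The submitters' processing notes name MACS3, build hg19, BWA 0.7.17-r1188, cutadapt 3.4 and bcl2fastq 2.20.0. Sources used here do not state caller settings or how duplicates were treated. The deposited lists, 1 per library, hold peak positions, a score that is 10 times the −log10 q, the fold enrichment over the library's own background as a ratio, and −log10 p and −log10 q, with q at most 0.05. They hold no read counts, so depth is unknown and no counting interval is given.

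Peaks were merged at 1 bp of overlap. Pileup and background at each summit were solved from the deposited fold and −log10 p. All summits gave a whole pileup within 0.01, and the solver and class rule were tested on simulated data. Bulk values were compared by exact permutation of 6 libraries (20 assignments). Python 3.11.15, numpy 2.4.6, pandas 2.3.3, scipy 1.17.1 and matplotlib 3.10.9 were used. H1-4 was named whatever its values, with the 6 strongest and 4 longest-gap joined regions split and spanned in all libraries, 4 with the most WT peaks and up to 3 reverse regions by the mirrored rule. Gene limits were written by hand for hg19. Spacing on chromosome 6 differed from RefSeq GRCh38.p14 by at most 22 bp. No hg19 genome or annotation was used here, so other regions were not assigned to genes. Members, lists and tests were chosen with earlier results of these data known. P-values reflect only how these libraries vary, which may be technical variation.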

Additional observations from a re-analysis of the deposited data

How the results depend on the processing

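Joined regions outnumbered reverse regions under every alternative run, by a margin that changed. Joined and reverse regions numbered 882 and 57 at −log10 q of at least 5, 576 and 23 at 10, 952 and 157 in lists of equal length, and 342 and 11 where all 3 libraries had to be split. The common joining distance with equal lists, chosen after seeing the data, gave 756 and 171. Leaving out 1 library changes how many splits the rule needs, and the counts ranged from 506 to 1795 joined and 44 to 299 reverse regions. Joined regions numbered 506, 876 and 584 without WT replicate 1, 2 or 3. Reverse regions numbered 44, 47 and 74 without CRAMP1-KO replicate 1, 2 or 3, and 295 and 299 without WT replicate 1 or 3. The share spanned in all CRAMP1-KO libraries, 57.3%, was 71.7% at −log10 q of 5, 78.0% at 10, 71.7% in equal lists, 64.6% for peaks at least 200 bp wide and 72.2% with all 3 WT libraries split. It ranged from 56.3% to 67.6% with a library left out. The median WT gap, 233.5 bp, was 296 bp when peaks up to 200 bp apart were joined, which removes shorter gaps, and 229 to 249.5 bp with a library left out. The scaled pileup difference of -0.04 was 0.13 under the depth index. The chromosome X difference was -1.18 percentage points in equal lists and ranged from -2.46 to -1.32, and the width difference from 22.3 to 64.0 bp, with a library left out. Deviations of same-numbered libraries correlated at 0.06, 0.06 and -0.09, and those of other-numbered libraries at -0.16 to 0.10. The labels do not say whether replicate numbers pair the libraries, and these values cannot settle it. With the replicate number as a block, the chromosome X difference of -1.83 had an exact sign-flip permutation p = 0.25 and the width difference of 48.7 bp p = 0.5, where 0.25 is the smallest possible. The cause of these shifts was not tested unless stated. Unknown depth limits how far a gap in a shallow list can be read.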
